A study of Mus musculus with 6 samples.

Results

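The cell cycle genes described here are 40 named genes, split into 12 regulators of the step from G1 into S phase, 12 genes of DNA replication and 16 genes of mitosis. They were measured at embryonic day 10.5 in the mouse outflow tract, the tube through which blood leaves the ventricles. Members were found by name: every probe set of the array whose platform annotation names one gene, and that gene a listed one. This gave 98 probe sets for 39 of the 40 genes, among 18193 genes that have such a probe set, and the mitotic cyclin gene Ccnb1 had none. The tract of CD1 embryos was dissected into superior and inferior subdomains, and pieces from littermates were pooled for each array. Each region has 3 pools, numbered 1, 6 and 7, and 6 arrays were hybridised in all. No allele, agent or treatment is named for either group, and the labels set the groups apart by region. The sample labels give 6 embryos per pool and the series text gives 7 dissected pieces, and nothing says that pools came from separate litters, so the spread between pools may be partly technical. The comparison asks which members differ between regions that lie side by side in one growing tube.

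Cells commit to division when D-type cyclins with Cdk4 or Cdk6, and then E-type cyclins with Cdk2, phosphorylate the retinoblastoma protein and release E2F transcription factors. E2F factors switch on genes of DNA replication, whereas genes of mitosis are switched on later, largely through CHR and CCAAT elements in their promoters. The outflow tract grows by adding cells from the second heart field, progenitors that divide while muscle that has joined the heart divides more slowly. Each array holds a piece of tissue with several cell types, so a larger share of dividing cells and more RNA of a gene per cell cannot be told apart.

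The deposited values are signals, scaled so that the trimmed mean of each array is 100. A log2 difference below is superior minus inferior on log2(signal + 3.2), and a positive value means that superior was higher. A probe set entered the tests if its average log2 value exceeded that of the median probe set, a signal of about 15.1. Of the 98 member probe sets 80 passed, with at least 1 for each of the 39 genes. The other 18, from 15 genes, had arithmetic mean signals of at most 15.2. Defining genes of heart muscle were above the background level of 8.0 in all arrays in 8 of 8 cases, and those of endocardium in 6 of 6.

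Control signals set the pool 1 arrays and the superior 6 array apart. Both pool 1 arrays had 3′ control signals for Gapdh above their 5′ signals, with a ratio of 1.30 in superior and 2.21 in inferior, against 0.832 to 0.899 in the other 4 arrays. Their beta-actin ratios were 2.23 and 2.26, against 1.45 to 1.87 in the other 4. Their 5′ control signals for 18S ribosomal RNA were 31.0 and 21.3, against 454.6 to 752.4. The superior 6 array had hybridisation control signals 1.64 times those of the median array, against 0.869 to 1.03 in the other 5. The part of these features in the results was not tested, and values without these pools are given beside the results.

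Replication and mitosis genes were slightly brighter in the superior pools, while the regulators of G1 went both ways. For the brightest tested probe set of each gene, all 12 replication genes and all 15 mitosis genes with a probe set had a higher mean in superior, against 7 of the 12 G1/S regulators. The median log2 difference was 0.05 for G1/S regulators, 0.17 for replication genes and 0.24 for mitosis genes, beside -0.00 over the 11195 tested genes, of which 49.2% were higher. In the 11259 probe sets of the top 25% by signal the median was 0.01. With the mean over all tested probe sets of a gene in place of the brightest, the medians were 0.15, 0.15 and 0.21, and 8 of 12 G1/S regulators, 12 of 12 replication genes and 13 of 15 mitosis genes were higher. Over single probe sets, 65 of the 80 of the members were higher in superior and 15 lower, beside 44.9% and 55.1% of all tested.

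None of the 80 probe sets passed limma's test with Benjamini-Hochberg adjustment over the 22518 tested probe sets (smallest adjusted p = 1.00), and the test passed 0 probe sets in all (0.00%). At an unadjusted p threshold of 0.05, limma passed 18 member probe sets of 10 genes as higher in superior and 1, that of Rb1, as lower, where it passed 1.78% of all tested probe sets as higher and 1.74% as lower. The 18 come to 22.5% of the members' probe sets, 7 of them probe sets of the single gene Ccnd2. With the pool number as a block, limma passed 36 probe sets after adjustment (0.160%), again 0 of them members (smallest adjusted p = 0.0909). The unadjusted threshold of the paired fit passed 28 member probe sets as higher and 3 as lower, where it passed 4.98% and 6.00% of all. In 24 member probe sets every superior signal lay above every inferior one (30.0%, against 4.65% of all tested), and in 2, one each of Rb1 and Cdk6, every superior signal lay below (4.56% of all).

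**Figure D1:**
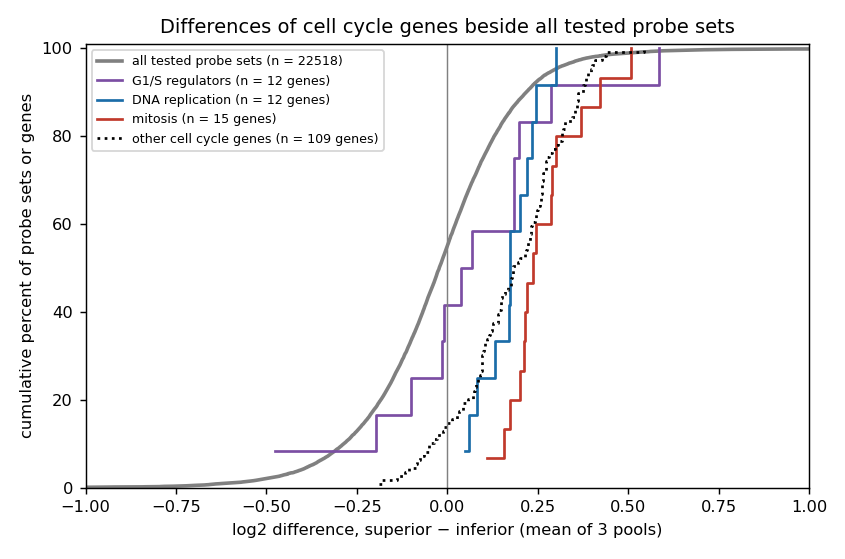
Cumulative percent of genes (y axis) with a log2 difference, superior minus inferior, up to the value on the x axis, for the 3 member groups, the 109 other tested cell cycle genes (dotted) and all 22518 tested probe sets (grey); the x axis is cut at -1 and 1. The replication and mitosis curves start above 0, while the curve of the G1/S regulators spans 0.

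Arrays were then compared by pool number. Of the 80 probe sets 37 were higher in superior in all 3 pools and 5 lower, beside 15.0% and 19.0% of all tested. Taking the brightest probe set of each gene, 18 of the 39 genes were higher in superior in all 3 pools, beside 17.9% of all tested genes, and 2 were lower in all 3, beside 17.1%. The 18 were Ccnd2, Cdk2 and Cdk4 among the G1/S regulators, 8 replication genes (Mcm4, Mcm5, Mcm6, Mcm7, Pcna, Cdt1, Rrm1 and Rrm2) and 7 mitosis genes (Mki67, Ccna2, Ccnb2, Cdk1, Bub1, Kif11 and Birc5). Ccnd1 and Rb1 were the 2 lower ones. Pool 6 differed from the others. The median mitosis difference was 0.38 in pool 1 and 0.34 in pool 7, with 15 of 15 genes higher in each, but -0.00 in pool 6, with 7 of 15 higher. For replication genes the medians were 0.21, 0.10 and 0.26 in pools 1, 6 and 7, and for G1/S regulators 0.10, -0.11 and 0.14. Without pool 6 the mitosis median was 0.36 and 32 of the 39 genes were higher in both remaining pools, beside 33.7% of all tested genes. Without pool 1 the mitosis median was 0.17 with 15 of 15 genes higher, the replication median 0.17 with 11 of 12, and the G1/S median turned to -0.04; 19 genes were higher in both remaining pools, beside 24.1% of all tested genes. Without pool 7 the medians were 0.17, 0.14 and -0.01 for mitosis, replication and G1/S genes, with 15 of 15, 10 of 12 and 6 of 12 genes higher. Then 20 genes were higher in both remaining pools, beside 27.7% of all tested genes.

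**Figure D2:**
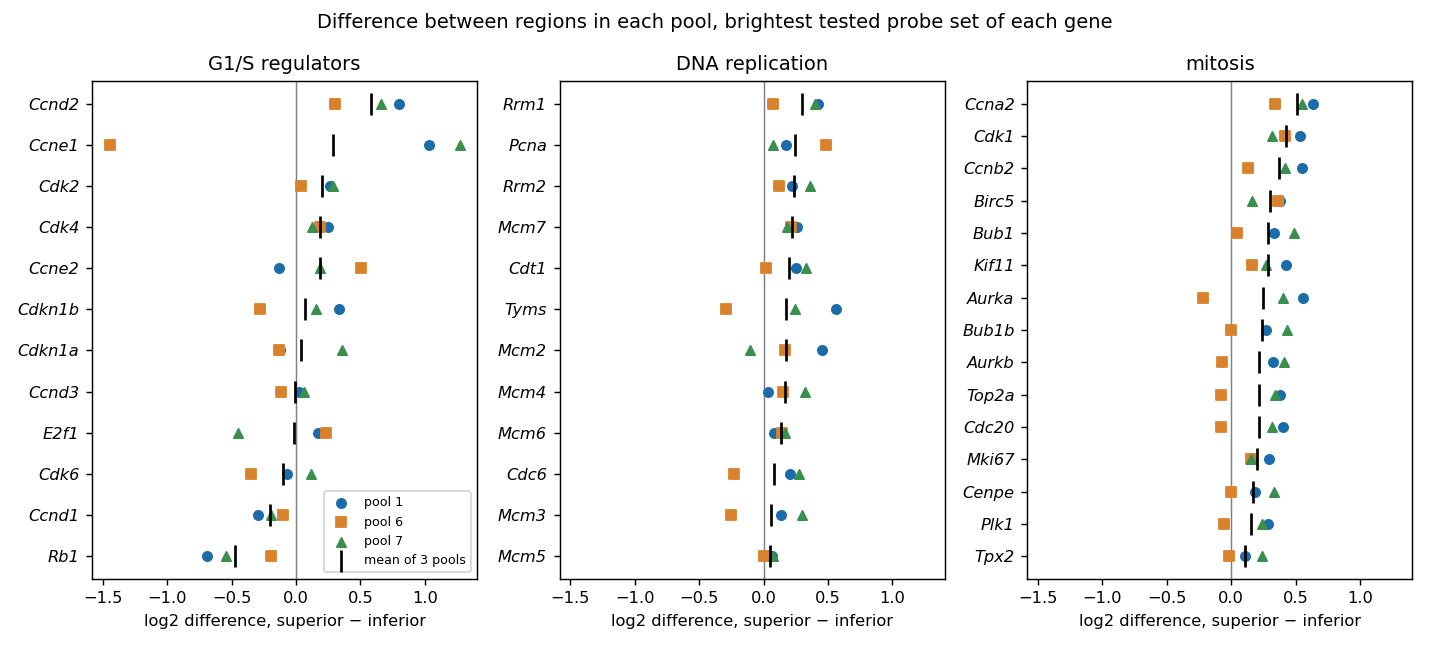
Log2 difference between regions (x axis) in pool 1 (circles), pool 6 (squares) and pool 7 (triangles), with the mean as a black bar, for the brightest tested probe set of each member gene. Pools 1 and 7 lie right of 0 for all 15 mitosis genes, while 8 of them lie left of 0 in pool 6.

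Quantile normalization, which gives all 6 arrays one distribution of signals, left the mean of all 12 replication and all 15 mitosis genes higher in superior, and 35 of 39 genes in all (53.2% of all tested genes). The medians became 0.08 for G1/S regulators, 0.12 for replication and 0.25 for mitosis genes, and 18 genes were again higher in every pool (18.7% of all tested genes). In pool 6 the mitosis median moved from -0.00 to 0.06 and the replication median from 0.10 to 0.03. Mitosis genes higher in every pool then numbered 10 in place of 7, and replication genes 5 in place of 8. Among bright replication genes, the difference of Pcna went from 0.24 to 0.09 and that of the brightest Mcm7 probe set from 0.22 to 0.12. limma still called 0 members under quantile normalization, unpaired (smallest adjusted p = 1.00; 0.00% of all) or paired (0.0669; 0.164% of all).

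**Figure D3:**
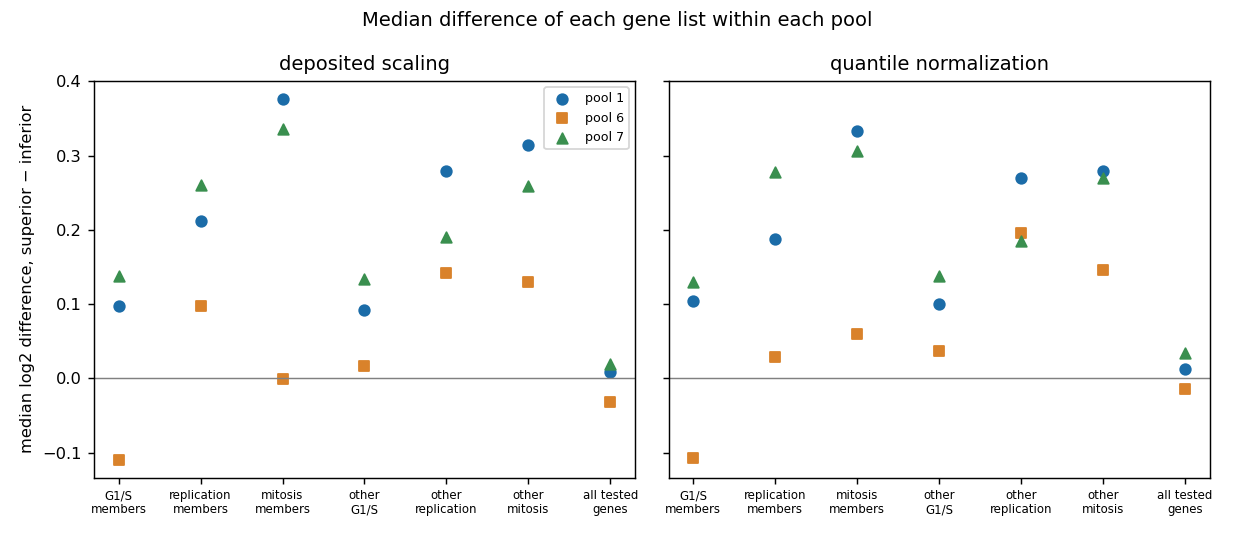
Median log2 difference, superior minus inferior (y axis), of each gene list in pools 1, 6 and 7, with the deposited scaling on the left and after quantile normalization on the right. Mitosis genes lie at 0.38 and 0.34 in pools 1 and 7 with the deposited scaling and at 0.33 and 0.31 after quantile normalization, and in pool 6 at -0.00 and 0.06.

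Promoters are shown for the members with the largest differences in each group among those with a promoter entry, since replication and mitosis genes are known to be read through different elements. Promoter entries from RefSeq (build GRCm38.p6) matched 32 of the 40 genes with 35 windows, and Aurkb, Ccna2, Ccnd1, Ccnd2, Ccne2, Mcm4, Rb1 and Tpx2 had no match. In the 250 bases before the start, both strands were searched for the CCAAT box (CCAAT), the CHR (TTTGAA or TTCGAA) and E2F-like letters (TTTGGCGC, TTTCCCGC, TTTGGCGG or TTTCCCGG). TTCGAA reads the same on both strands and was counted once, and no matches in the members' windows overlapped. In the sequences below, written 5′ to 3′ on the strand of the gene, capitals mark these letters on either strand.
Cdk1: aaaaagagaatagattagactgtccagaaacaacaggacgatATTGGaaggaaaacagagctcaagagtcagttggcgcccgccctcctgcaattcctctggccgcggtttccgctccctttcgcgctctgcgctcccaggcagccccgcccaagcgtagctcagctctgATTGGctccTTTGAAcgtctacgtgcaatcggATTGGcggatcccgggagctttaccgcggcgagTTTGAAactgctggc
Ccnb2: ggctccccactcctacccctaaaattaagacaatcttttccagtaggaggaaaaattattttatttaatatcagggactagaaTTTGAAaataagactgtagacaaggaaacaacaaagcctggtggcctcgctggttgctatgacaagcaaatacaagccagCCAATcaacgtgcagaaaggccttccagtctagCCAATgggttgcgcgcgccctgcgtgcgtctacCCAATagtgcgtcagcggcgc
Rrm1: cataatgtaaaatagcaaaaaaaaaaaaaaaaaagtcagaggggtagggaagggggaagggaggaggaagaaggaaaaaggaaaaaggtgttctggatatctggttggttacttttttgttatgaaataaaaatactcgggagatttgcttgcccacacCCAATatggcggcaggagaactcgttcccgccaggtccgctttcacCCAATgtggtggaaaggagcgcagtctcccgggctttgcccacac
Pcna: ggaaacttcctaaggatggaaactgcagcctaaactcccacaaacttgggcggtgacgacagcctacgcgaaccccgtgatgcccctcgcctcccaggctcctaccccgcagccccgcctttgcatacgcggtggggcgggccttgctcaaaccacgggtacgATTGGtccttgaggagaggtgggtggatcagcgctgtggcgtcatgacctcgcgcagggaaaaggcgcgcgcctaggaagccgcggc
Cdk2: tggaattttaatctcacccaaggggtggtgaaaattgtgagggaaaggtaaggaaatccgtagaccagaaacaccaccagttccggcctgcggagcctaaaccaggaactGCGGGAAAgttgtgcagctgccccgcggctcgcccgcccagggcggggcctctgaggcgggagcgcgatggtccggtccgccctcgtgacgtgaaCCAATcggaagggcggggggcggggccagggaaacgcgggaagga

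The windows lie at chr10:69352913-69353162 for Cdk1, chr9:70421555-70421804 for Ccnb2, chr2:132253181-132253430 for Pcna and chr10:128705052-128705301 for Cdk2, all on the minus strand, and at chr7:102441445-102441694 for Rrm1 on the plus strand. The mitotic kinase gene Cdk1 has 2 TTTGAA matches, the nearer one starting 15 bases before the start, and 3 CCAAT matches. Ccnb2 has CCAAT matches starting 87, 54 and 21 bases before the start, and 1 TTTGAA at 167. In Rrm1 and Pcna the search found CCAAT matches alone, 2 and 1 of them. Cdk2 has 1 TTTCCCGC on the opposite strand and 1 CCAAT, and the window of Ccne1, the other G1/S regulator by this choice, holds no match. CCAAT was present in 12 of 13 windows of mitosis genes, 9 of 12 of replication genes and 3 of 10 of G1/S regulators, beside 33.8% of the 32851 promoter windows. A CHR match was present in 7 of 13 windows of mitosis genes (Bub1b, Ccnb2, Cdc20, Cdk1, Kif11, Mki67 and Top2a), 2 of 12 of replication genes and 0 of 10 of G1/S regulators, beside 17.1% of windows. E2F letters were present in 4 of 12 windows of replication genes (Cdc6, Mcm5, Mcm6 and Mcm7), 1 of 13 of mitosis genes (Birc5) and 1 of 10 of G1/S regulators (Cdk2), beside 2.68% of windows. A match is a run of letters and not a bound site.

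The D-type cyclins, partners of Cdk4 and Cdk6, differed among themselves. Ccnd2 had the largest difference of all members. Its brightest probe set had signals of 2313, 1953 and 2220 in superior pools 1, 6 and 7 and of 1328, 1586 and 1406 in the inferior pools. Every superior signal lay above every inferior one, with the smallest gap within a pool in pool 6. The means were 2162 ± 187 (SD, n = 3) and 1440 ± 132, a 1.5-fold difference (log2 0.59 ± 0.11, SE; adjusted p = 1.00 by limma unpaired and 0.124 paired). All 7 tested Ccnd2 probe sets were higher in superior in every pool, by log2 0.59 to 0.72, at mean superior signals from 40.7 to 2162, and in all 7 the regions did not overlap. By pool (1, 6 and 7), the brightest gave 0.80, 0.30 and 0.66, whereas a probe set with a superior mean of 152.8 had 0.95, 0.86 and 0.21. In the paired fit without pool 6, 5 of the 7 passed (smallest adjusted p = 0.00175), and without pool 7, 2 of them did (0.00866 and 0.0320). Without pool 1, whose arrays stood apart in the Gapdh control ratio, no member probe set passed (smallest adjusted p = 0.717 by limma), so each of these calls rests on fits that hold pool 1. Each such fit has 1 residual degree of freedom. Those without pool 6 or pool 7 passed more of all probe sets than the paired fit with every pool, which passed 0.160%. The count over all probe sets in each fit is given in the closing section.

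Ccnd1, the D-type cyclin that many growth signals switch on, had the opposite sign. Its brightest probe set had signals of 639.8, 932.4 and 719.8 in superior pools 1, 6 and 7 and 786.0, 1001 and 825.2 in the inferior pools. The inferior array was the brighter one in each pool, although the regions overlapped because pool 6 was bright in both. The log2 difference was -0.20 ± 0.16 (adjusted p = 1.00), and it was -0.08 without the superior 1 array and -0.35 without the superior 6 array. The other 2 Ccnd1 probe sets gave -0.18 and -0.24, lower in every pool as well. Ccnd3 had signals of 875.3, 992.6 and 1184 against 860.8, 1077 and 1132, which overlapped fully (log2 -0.01 ± 0.15). Relative to Ccnd1 within the same pools, Ccnd2 was higher by log2 0.78 ± 0.35 (SD of 3 pools), with 1.10, 0.40 and 0.85 in pools 1, 6 and 7. No test was run on this difference between genes.

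**Figure D4:**
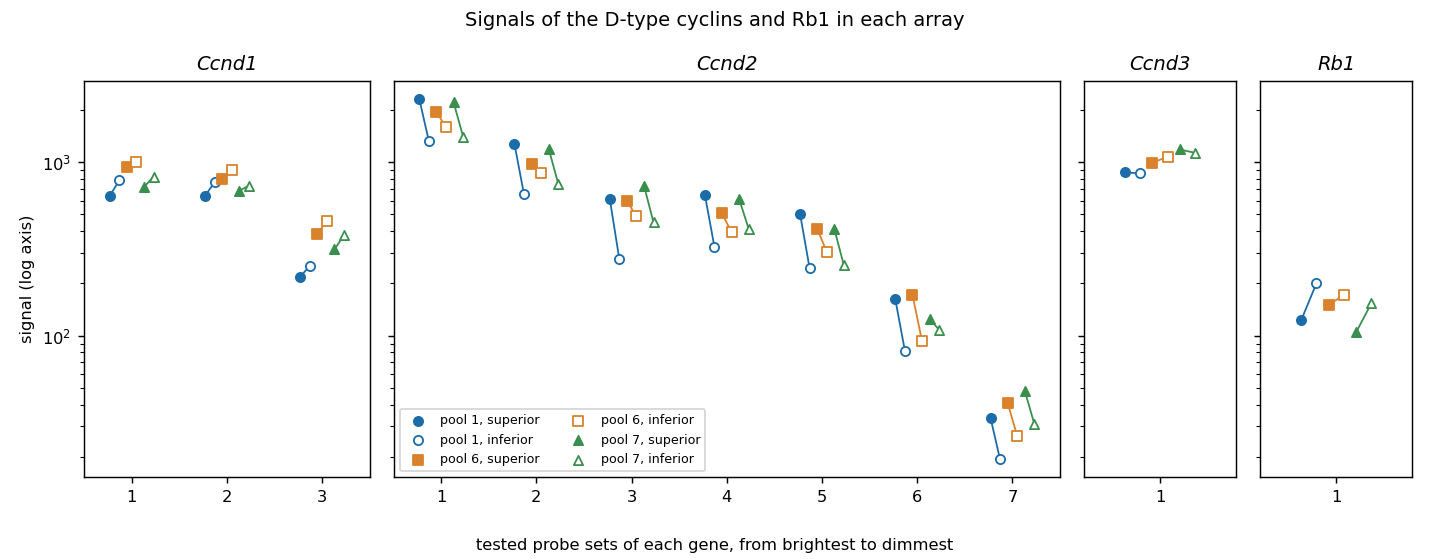
Signal on a log axis (y axis) of every tested probe set of Ccnd1, Ccnd2, Ccnd3 and Rb1, with lines joining the superior (filled) and inferior (open) array of one pool. All 21 lines of Ccnd2 run down from superior to inferior, and all 9 lines of Ccnd1 and all 3 of Rb1 run up.

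Rb1, which encodes the retinoblastoma protein that holds E2F factors back, had the lowest difference of all members. This rests on 1 tested probe set, as the other Rb1 probe set was too dim to enter the tests. The tested one had signals of 122.8, 149.7 and 104.4 in superior pools 1, 6 and 7 and of 200.2, 172.1 and 153.4 in inferior pools. Each inferior signal exceeded all 3 superior ones, and the log2 difference was -0.48 ± 0.17 (1.39-fold lower in superior; adjusted p = 1.00 unpaired and 0.267 paired). It was -0.69, -0.20 and -0.54 in pools 1, 6 and 7. In the paired fit without pool 6, where its difference was smallest, it passed narrowly (adjusted p = 0.0489, 1 residual degree of freedom). That fit passed more of all probe sets than the paired fit with every pool. The kinases that phosphorylate the retinoblastoma protein had smaller differences than Rb1, and in both directions. Cdk4 had 3 probe sets at log2 0.06 to 0.18, of which the brightest was higher in every pool, with signals of 1776, 1503 and 1445 against 1494, 1324 and 1326. Cdk6 had -0.10 ± 0.21 for its brighter and -0.06 ± 0.11 for its dimmer probe set, whose signals of 189.6, 201.6 and 201.3 lay just below 202.0, 213.3 and 203.9. Cdk2, the partner of cyclins E and A, had signals of 400.4, 296.1 and 263.3 against 332.0, 287.3 and 215.6 (log2 0.20 ± 0.21), so pools differed more than regions, and the difference was 0.03 without the superior 1 array.

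The direction of the E-type cyclins depended on the probe set and the pool. The brighter Ccne1 probe set swung widely, with 347.6, 102.7 and 384.6 in superior and 167.8, 285.6 and 157.4 in inferior pools. It is of the _x_at type, which may also bind related transcripts. It was higher in superior in pools 1 and 7 by log2 1.04 and 1.27 and lower in pool 6 by -1.45, so its mean of 0.29 ± 0.51 has no fixed sign, and its call in the paired fit without pool 6 (adjusted p = 0.00175) rests on leaving that pool out. The dimmer Ccne1 probe set was steadier, at 131.2, 111.7 and 143.6 against 114.6, 109.2 and 114.6. It was higher in superior in every pool (0.18 ± 0.14), with 0.03 in pool 6. Ccne2 had a difference of 0.18 ± 0.16, with -0.13 in pool 1. E2f1, a transcription factor that drives replication genes, was dim, and its probe sets disagreed. The brighter one had 28.3, 53.8 and 37.7 against 24.8, 45.2 and 52.7 (log2 -0.01 ± 0.32), and the other 27.2, 42.7 and 41.8 against 21.8, 27.2 and 35.6 (0.36 ± 0.25).

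Of the inhibitors of cyclin-dependent kinases, Cdkn1a, the p53 target p21, also had probe sets that disagreed in size. The brighter gave 0.04 ± 0.20, and the dimmer had 98.6, 88.2 and 61.8 in superior against 58.5, 67.2 and 39.1 in inferior pools (0.57 ± 0.25, higher in every pool). Cdkn1b, which encodes p27, had 114.9, 270.5 and 354.5 against 90.6, 329.1 and 318.3 (0.07 ± 0.59). Both of its pool 1 signals were far below those of the other pools, and that spread exceeded any difference between regions.

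Among replication genes, the subunits of ribonucleotide reductase and Pcna stood highest with the deposited scaling. Rrm1, the large subunit of the enzyme that makes deoxyribonucleotides, had 912.2, 817.0 and 944.9 in superior pools 1, 6 and 7 and 680.7, 775.1 and 714.1 in inferior pools. The regions did not overlap, and the log2 difference was 0.30 ± 0.11 (1.23-fold; adjusted p = 1.00 unpaired and 0.371 paired). It was 0.42 and 0.40 in pools 1 and 7 and 0.08 in pool 6. Rrm2, the small subunit whose level is highest in S phase, had 1425, 1413 and 1474 against 1222, 1301 and 1146. Again no array of one region reached the other (0.23 ± 0.09), and its other 2 tested probe sets gave 0.28 and 0.42. Pcna, the sliding clamp of DNA polymerases, had 3009, 3677 and 2946 against 2665, 2629 and 2797. Its difference of 0.24 ± 0.11 was largest in pool 6 (0.17, 0.48 and 0.07 in pools 1, 6 and 7). It was 0.14 to 0.30 with 1 array left out, and 0.09 after quantile normalization. The superior 6 array also had the bright hybridisation controls, and their part in this value was not tested. After quantile normalization the order changed. Rrm1 was at 0.27, Tyms at 0.24 and Rrm2 and Mcm2 at 0.17, and Pcna lay below Mcm4 (0.13) and Mcm7 (0.12).

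Mcm2 to Mcm7 form the helicase that opens DNA at origins, and their differences were smaller with the deposited scaling. Mcm7 had 1857, 1898 and 1848 in superior against 1547, 1636 and 1630 in inferior pools. That probe set had little spread within a region and no overlap (log2 0.22 ± 0.08, 1.16-fold; adjusted p = 1.00), and its other 3 gave 0.17 to 0.29, all higher in every pool. The other subunits had 0.17 (Mcm2 and Mcm4), 0.13 (Mcm6), 0.06 (Mcm3) and 0.05 (Mcm5) for their brightest probe sets. Some had a further probe set on the other side of 0. The brighter Mcm4 probe set had 1441, 1220 and 1337 against 1408, 1096 and 1068, and the dimmer 536.1, 640.6 and 550.1 against 599.1, 532.0 and 685.0 (-0.07 ± 0.13). For Mcm2 the brighter had 483.9, 544.8 and 482.2 against 353.0, 484.7 and 518.4, and the dimmer 393.1, 260.7 and 323.5 against 355.1, 328.5 and 287.4 (-0.01 ± 0.17). In both genes the pools changed order between probe sets, so the sign depends on which probe set is read. Mcm3 had 711.8, 571.8 and 740.7 against 648.9, 680.3 and 602.5 for its brightest of 4, whereas another gave 0.25 without overlap and the dimmest -0.12. Of the factors that load this helicase, Cdt1 had 1144, 898.6 and 1015 against 961.2, 886.7 and 806.4 (0.20 ± 0.12), and Cdc6 had 0.08 ± 0.15 with -0.23 in pool 6. Tyms, which makes thymidylate, was dim, at 33.5, 23.4 and 31.3 against 21.6, 29.4 and 25.9 (0.17 ± 0.21), with -0.29 in pool 6.

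Some replication genes had 1 probe set that was low in both pool 1 arrays while others of the same gene were not. The dimmer Rrm1 probe set had signals of 57.1 and 29.8 in superior and inferior pool 1 and between 236.8 and 284.7 in the other 4 arrays. Similarly, 1 Rrm2 probe set had 164.8 and 91.5 against 276.7 to 362.4, and 1 Mcm3 probe set 17.8 and 20.7 against 73.7 to 94.9. Across the members 3 of 80 tested probe sets, those of Rrm1, Mcm3 and Cdkn1b, had both pool 1 signals under 50% of the lowest signal of the other arrays, beside 488 of 22518 (2.17%) in the whole table. For pools 6 and 7 the count was 0 of 80 each, beside 16 of 22518 each. The Gapdh control ratio and the 18S ribosomal RNA control signals stood apart in the same 2 arrays, and their part in these probe sets was not tested.

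**Figure D5:**
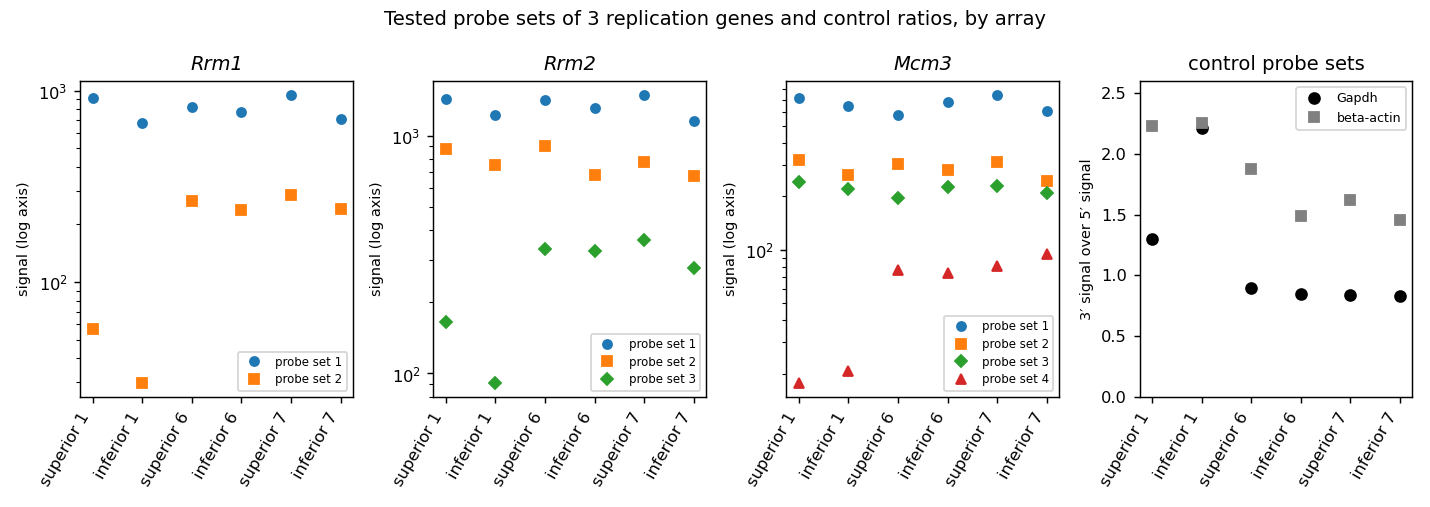
Signals on a log axis of the tested probe sets of Rrm1, Rrm2 and Mcm3 in each of the 6 arrays, numbered from brightest to dimmest, and on the right the ratio of 3′ to 5′ signal of the Gapdh and beta-actin control probe sets. The dimmest probe set of each gene is low in both pool 1 arrays, where the Gapdh ratio is 1.30 and 2.21.

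Mitosis genes were led by the cyclins and their kinase. Ccna2, the cyclin of S phase and entry into mitosis, had signals of 827.6, 675.4 and 718.1 in superior pools 1, 6 and 7 and 531.5, 532.3 and 490.4 in inferior pools. The lowest superior signal lay well above the highest inferior one, and the log2 difference was 0.51 ± 0.11 (1.42-fold; adjusted p = 1.00 unpaired and 0.115 paired), with 0.64, 0.34 and 0.55 by pool. Its other probe set had 0.40 ± 0.16, also higher in every pool. Both passed in the paired fit without pool 6 (adjusted p = 0.0184 and 0.0354, 1 residual degree of freedom). Pool 6 had the smallest difference for both probe sets, and that fit passed more of all probe sets than the paired fit with every pool. Cdk1, the kinase that drives entry into mitosis, had 1020, 1229 and 1108 against 702.4, 919.3 and 890.1 (0.42 ± 0.13). Its difference held in pool 6, at 0.42, beside 0.54 and 0.31 in pools 1 and 7. Ccnb2, a B-type cyclin and partner of Cdk1, had 507.9, 438.3 and 498.5 against 345.0, 399.5 and 372.3 (0.37 ± 0.12).

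Birc5, the survivin subunit of the chromosomal passenger complex, had 864.6, 800.7 and 778.6 in superior against 665.4, 622.6 and 696.8 in inferior pools (0.30 ± 0.10), with no overlap. Aurkb, the kinase of that complex, had 0.22 ± 0.14 with -0.07 in pool 6 for its brighter probe set. The dimmer had 0.13 ± 0.15, with 0.24 in pool 6 and -0.01 in pool 1. Bub1, a spindle checkpoint kinase, had 581.9, 504.7 and 560.9 against 460.7, 489.2 and 399.9 (0.29 ± 0.12), where pool 6 contributed 0.04. Bub1b, its relative, had 0.24 and 0.11 for its 2 tested probe sets. Kif11, the motor that pushes spindle poles apart, had 290.6, 273.2 and 297.6 against 215.9, 244.0 and 246.0 (0.29 ± 0.12), another probe set at 0.37 and a dim one at -0.01. Mki67, the antigen used to stain dividing cells, had 1016, 1057 and 973.1 against 827.2, 947.4 and 875.8. It was higher in superior in each pool and without overlap, by log2 0.20 ± 0.10, a 1.15-fold difference (adjusted p = 1.00).

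By their brightest probe sets, other mitosis genes shared the direction in pools 1 and 7 and not in pool 6. The anaphase activator Cdc20 had 1176, 1026 and 1327 in superior and 890.2, 1086 and 1063 in inferior pools, so in pool 6 the inferior array was brighter (0.21 ± 0.13). Top2a, which untangles chromosomes, had 1044, 1094 and 1243 against 799.8, 1155 and 980.7 (0.22 ± 0.15), with a dim second probe set at -0.03. The spindle kinase Aurka had 0.25 ± 0.17 with -0.22 in pool 6, and Plk1 0.16 ± 0.19 with -0.06. Tpx2, which activates Aurka, had 317.0, 312.2 and 315.1 against 294.4, 315.4 and 266.4 for its brighter probe set (0.11 ± 0.11) and -0.12 ± 0.16 for the dimmer. The kinetochore motor Cenpe had 165.0, 194.7 and 222.4 against 145.0, 194.9 and 175.5 (0.17 ± 0.17) and -0.19 ± 0.34. The dimmer probe sets of both spread more widely than the brighter ones. In pool 6 the dimmer tested probe sets gave 0.13 and 0.67 for Cdc20, 0.24 for Aurkb, 0.10 for Top2a and 0.55 for Cenpe. Those of Tpx2 and Bub1b gave -0.56 and -0.29, so the direction in pool 6 depended on the probe set read. Over all members, 26 genes had more than 1 tested probe set. The signs matched within 18 of them, 16 higher and 2 lower (Ccnd1 and Cdk6), and differed in 8.

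Other genes of the cell cycle were grouped by role into the same 3 classes. Of 113 listed genes 109 were tested, 93 of them with a higher mean in superior (85.3%), and the median log2 difference was 0.18, with 0.25, 0.09 and 0.21 in pools 1, 6 and 7. limma called 0 of them, unpaired or paired, and passed 17 as higher and 0 as lower at an unadjusted p threshold of 0.05, where it passed 2.10% and 1.57% of all tested genes. By role, 35 of 39 replication genes (median 0.18), 42 of 47 mitosis genes (0.25) and 16 of 23 G1/S regulators (0.08) were higher. In pool 6, where 7 of the 15 mitosis members were higher, 36 of the 47 other mitosis genes were, with a median of 0.13; the difference between these lists was not tested. Gmnn, which encodes the replication inhibitor geminin, had 0.37, 0.40 and 0.43 in pools 1, 6 and 7 (mean 0.40 ± 0.09; paired adjusted p = 0.158). Tk1, a thymidine kinase of S phase, had 0.54 ± 0.17 (0.68, 0.18 and 0.77). Pold2, a subunit of DNA polymerase delta, had 0.35 ± 0.12. Among mitosis genes Cks2, a Cdk1 binding subunit, had 0.30, 0.37 and 0.41, Ube2c, a ubiquitin enzyme of anaphase, 0.58, 0.34 and 0.23, and Smc4, a condensin subunit, 0.39, 0.22 and 0.48. Of the other G1/S regulators, the repressor gene E2f8 had 0.38 ± 0.14, Cks1b 0.23 ± 0.10, and Mycn, a growth-promoting transcription factor, 0.41 ± 0.21 with a higher value in each pool, whereas Myc had -0.19 ± 0.19 and E2f3 -0.18 ± 0.11.

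Marker lists of other cell types were read beside these groups. Epicardial genes were higher in superior in 7 of 7 tested cases, with summed signals of 1005 to 1818 in superior and 555.4 to 833.6 in inferior pools, and Msln was not above background in any array. Heart muscle genes were higher in 7 of 8, with sums of 26273 to 30573 against 22982 to 23770, but in 5 of 8 after quantile normalization, where their median went from 0.23 to 0.09 and was -0.05 in pool 6. Anterior second heart field genes were higher in 1 of 4, with sums of 1225 to 1666 against 1387 to 2021, and neural crest genes in 1 of 4, with sums of 103.7 to 132.9 against 170.0 to 193.6 and Tfap2b and Foxd3 not above background. Erythroid genes were higher in 4 of 5 tested cases, with sums of 13892 to 22652 against 12510 to 15698, and Hba-a1 was not above background in any array. In pool 7 erythroid genes were higher in 1 of 5, and after quantile normalization in 3 of 5, with a median of 0.01 in place of 0.21. The sums overlapped between regions for second heart field and erythroid genes. They also overlapped for endocardium (1292 to 1773 against 1254 to 1669), cushion mesenchyme (3708 to 5981 against 3562 to 5694) and macrophages (91.8 to 244.0 against 101.3 to 240.4). Within pools 1, 6 and 7 the second heart field sums differed by log2 -0.19, -0.18 and -0.28, and the erythroid sums by 0.15, 0.53 and -0.02. Cushion mesenchyme genes were higher in superior in 1 of 5 cases, the bright Postn (median -0.20), and in 0 of 5 after quantile normalization. Endocardial genes were higher in 5 of 6 (median 0.03) and macrophage genes in 3 of 4 (0.08). The part of these cell types in the cell cycle values was not tested.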

How the data were processed

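Total RNA of 6 pools was measured on Affymetrix mouse whole-genome arrays. The deposited values are linear signal intensities made by the authors with MAS5, per the submitters' processing notes (no version is given in the sources used here). This method subtracts mismatch signals, so dim probe sets are noisy. Precision is limited by the number of arrays. The 64 control probe sets were left out of the tests, and 45037 remained, of which 34945 name 1 gene in the platform annotation. Symbols were checked against a RefSeq table of GRCm38.p6. The offset of 3.2 is the 25th percentile of all signals, and the background level of 8.0 is the highest of 27 Bacillus controls. R 4.3.3 with limma 3.58.1 compared the regions, using lmFit and a trended, robust eBayes prior, and leaving out the pool number. P-values were adjusted by Benjamini-Hochberg over 22518 probe sets, with a threshold of 0.05. SE are those of this unpaired fit. Same-numbered arrays deviated together from their region means (r = 0.79, 0.43 and 0.51 for pools 1, 6 and 7, across probe sets), all above the limit of 0.1. Superior 7 with inferior 6 (r = 0.20) and superior 6 with inferior 7 (r = 0.18) also passed it. Unlike-numbered arrays that included pool 1 had r of -0.54 to -0.46. The limit therefore cannot show that pools 6 and 7 are pairs. A paired fit, blocked on the pool number, is given beside the unpaired one. The labels do not say what the number marks. One gene is represented by its brightest tested probe set. Probe sets ending in _x_at or _s_at may also bind related transcripts. Values by array are given for up to 6 members per group with the largest differences, for members whose probe sets disagree in sign and for bright members. Alternatives were quantile and 75th percentile scaling, offsets of 1 and 16, no filter and the top 25%, no trend, and leaving out arrays or pools. Members and lists were chosen with earlier results of these data known.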

Additional observations from a re-analysis of the deposited data

How the results depend on the processing

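With the replicate block, the pool number in the fit, the count of called probe sets went from 0 to 36, and to 37 after quantile normalization as well, a setting added after seeing the data; it changed no call of a member. With the block and a pool left out (also added), 9 to 231 probe sets and 0 to 9 member probe sets were called: 9 and 0 without pool 1, 231 and 9 without pool 6, and 116 and 2 without pool 7. These fits have 1 residual degree of freedom, and a higher count is no stronger evidence. Without the block, each of the other settings called 0 probe sets. The count of member genes higher in every pool was 18 in all and 18 to 21 under the other scalings, offsets and filters, and with a pool left out it was 19 to 32. The count of genes lower in every pool was 2, and 2 to 4 with a pool left out. Group medians moved by less than the SD between pools under each alternative, but the G1/S median was -0.04 without pool 1 and -0.01 without pool 7. The fits with a pool left out are not counted in what follows. Of 583 other alternative values for the 39 member genes, none passed the threshold and 560 kept their sign. The 23 others came from 9 genes, 6 of them G1/S regulators. With 1 array left out, these genes ranged from -0.13 to 0.093 (Ccnd3), -0.049 to 0.89 (Ccne1), -0.017 to 0.22 (Cdc6), -0.33 to 0.035 (Cdk6), -0.17 to 0.19 (Cdkn1a), -0.53 to 0.54 (Cdkn1b), -0.31 to 0.19 (E2f1), -0.011 to 0.17 (Mcm3) and -0.027 to 0.28 (Plk1). With 75th percentile scaling Ccnd3 was at 0.030 and E2f1 at 0.022, and with quantile normalization, with or without the block, E2f1 was at 0.053. Leaving out 1 array moved the difference of 24 of the 39 genes by over 1.5 times. Signals near background limit the dim genes Tyms and E2f1.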
